A study of Mus musculus with 42 samples.

Results

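The 41 genes described here act in the cell division cycle, and their levels were compared between wild-type and *Tug1*-/- mice in 7 tissues. They were chosen by name from a fixed list, with earlier results of these data known. They are 41 of the 26653 genes in the deposited table, all of them found there. Of these, 16 belong to S phase (DNA replication and the steps that prepare it) and 25 to mitosis. *Tug1* is a gene for a long noncoding RNA. The mice carried the allele Tug1_tm1.1Vlcg, in which a *lacZ* reporter takes the place of most of *Tug1* behind the gene's own promoter in every cell of the body. Wild-type mice had both normal alleles, knockout mice were homozygous for the reporter allele, and all were males on a C57BL/6J background. Polyadenylated RNA was sequenced from 42 samples, 22 of them from wild-type mice and 20 from knockouts. There were 4 wild-type and 3 knockout samples of testes and 3 and 2 of prostate, and spleen, heart, liver, eyes and mouse embryonic fibroblasts (MEFs) had 3 and 3. The MEFs came from littermate embryos and were at passage 2, and the age of the mice that gave the other tissues is not given in the sources used here.

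A dividing cell copies its DNA in S phase and then separates the copies in mitosis. Cyclins are short-lived proteins that switch on cyclin-dependent kinases: cyclin E opens S phase, and cyclins A and B carry the cell into mitosis. Replication origins are licensed by CDC6, CDT1 and the MCM helicase, the spindle then pulls the chromosomes apart at their kinetochores, and the anaphase-promoting complex ends mitosis by marking cyclin B and other proteins for destruction. S phase genes are classically turned on by E2F factors, and mitosis genes later by complexes that contain B-MYB and FOXM1. Since resting cells keep nearly all these genes low, their RNA is widely used to judge how much of a tissue is dividing. Spleen of the mouse makes red and white blood cells besides housing lymphocytes, the testis holds mitotic and meiotic germ cells, and MEFs in culture divide.

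Each level below is the authors' value for a genotype in a tissue, in FPKM (fragments scaled to the length of the transcript and the size of the library), which allows levels of different genes to be set side by side. The replicates had been combined in it, so there is 1 value per genotype and tissue, no spread between mice and no test in what follows. The depth of the libraries is unknown. A log2 ratio is log2((KO + 0.1)/(WT + 0.1)), so that a positive value means a higher level in the knockout, and it understates the difference of genes with low levels. Counts are over members with a mean of both genotypes of at least 1 FPKM, and a gene was counted as higher or lower when the ratio reached 1.5 times (0.58 on the log2 scale). None of the differences has a replicate check, so whether they exceed the spread between mice or cultures is unknown. *Tug1* itself lay between 11.2 and 27.7 FPKM in wild-type tissues and between 0.00753 and 0.402 FPKM in knockout tissues, as the labels say. Defining genes of each tissue were high where the label placed them, such as the cardiac myosin light chain gene *Myl2* in heart, the lens crystallin gene *Cryaa* in eyes and the protamine gene *Prm1* in testes. Liver had *Apoa1* at 12014 FPKM, but *Alb* was listed at 0 in both genotypes with too little data. In bulk tissue, fewer cells of a type and less RNA per cell cannot be told apart.

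Promoters of these genes carry short sequence words for the factors named above, and a few are shown because the S phase and the mitosis members differ in them, which no expression value entered. The words searched on both strands were CCAAT, the binding word of NF-Y, the cell cycle homology region (CHR) TTTGAA, and words of the E2F site, which can overlap one another. The E2F words were TTCCCGC, its close variant TTCGCGC, the related form TTGCCGC and, as the last of the set, TTGGCGC. RefSeq promoters of GRCm38.p6, 250 bases before to 50 after the start, were found for 13 S phase members and 21 mitosis members, with 14 and 22 promoters. The CHR word lay in 17 of the 22 promoters of mitosis members and in 1 of the 14 of S phase members, against 17.9% of all 32851 promoters. The E2F words lay in 9 of the 14 promoters of S phase members and in 3 of the 22 of mitosis members, against 9.57% of all promoters. CCAAT was found in 9 and 19 of them, against 37.4% of all. A match is a description of the letters, not of binding.

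The 6 members shown held CCAAT together with a CHR word (mitosis) or an E2F word (S phase) in the 100 bases before the start, counted from the more upstream of the RefSeq and GENCODE starts. They run 5′ to 3′ on the strand of the gene, and capitals mark the words found.
*Mcm6* (S phase, chr1:128359706-128359805, minus strand): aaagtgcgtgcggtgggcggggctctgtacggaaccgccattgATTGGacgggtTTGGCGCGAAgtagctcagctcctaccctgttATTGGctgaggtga
*Rrm1* (S phase, chr7:102441595-102441694, plus strand): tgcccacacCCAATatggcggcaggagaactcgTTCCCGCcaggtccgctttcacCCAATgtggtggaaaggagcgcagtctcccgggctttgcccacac
*Cdc20* (mitosis, chr4:118437353-118437452, minus strand): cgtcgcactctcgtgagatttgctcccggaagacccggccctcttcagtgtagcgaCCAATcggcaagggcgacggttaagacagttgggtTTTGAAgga
*Cdk1* (mitosis, chr10:69352939-69353038, minus strand): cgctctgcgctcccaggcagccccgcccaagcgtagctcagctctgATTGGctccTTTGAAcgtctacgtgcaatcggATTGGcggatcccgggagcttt
*Top2a* (mitosis, chr11:99024190-99024289, minus strand): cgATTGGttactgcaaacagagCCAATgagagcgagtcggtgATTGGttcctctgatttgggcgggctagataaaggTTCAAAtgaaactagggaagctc
*Kif11* (mitosis, chr19:37376282-37376381, plus strand): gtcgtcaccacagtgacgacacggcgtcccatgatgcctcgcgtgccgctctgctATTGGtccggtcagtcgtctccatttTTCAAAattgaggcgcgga
The mitosis promoters hold between 1 and 3 CCAAT words and a single CHR word, and the S phase promoters hold 2 CCAAT words each with 1 or 2 overlapping E2F words.

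In wild-type mice the members were high in spleen, MEFs and testes and low in the other tissues. All 41 reached a mean of 1 FPKM in these 3 tissues, against 24 in prostate, 26 in eyes, 22 in heart and 19 in liver. The median wild-type level of the 25 mitosis members was 26.8 FPKM in testes, 14.1 in MEFs and 9.12 in spleen, and between 0.398 in liver and 1.07 in prostate elsewhere. The 16 S phase members had another order, with medians of 17.5 FPKM in spleen, 15.6 in MEFs and 8.20 in testes, and between 2.39 and 3.09 in the remaining tissues. When each genotype of a tissue was scaled to the same total, 17 of the 25 mitosis members had their highest wild-type level in testes, while 8 of the 16 S phase members had theirs in spleen. The summed level of the mitosis members was 3.47 times that of the S phase members in wild-type testes, 1.33 times in MEFs, 0.988 times in spleen and 0.215 times in liver.

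A few members stood out from their group where the rest were low. *Cenpa*, the centromere histone, was at 26.9 FPKM in wild-type heart, above its FPKM in any other tissue although below spleen with equal totals, while the median mitosis member there was at 0.674 FPKM. *Bub1b* and *Ccna2* were at 6.55 and 6.61 FPKM in wild-type eyes, where the median mitosis member was at 1.02 FPKM. *Ttk*, a checkpoint kinase, was the lowest mitosis member in spleen, prostate, eyes, heart and liver. *Pcna*, which also serves DNA repair, was the highest S phase member in every tissue but testes, where *Mcm7* reached 89.4 FPKM.

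**Figure D1:**
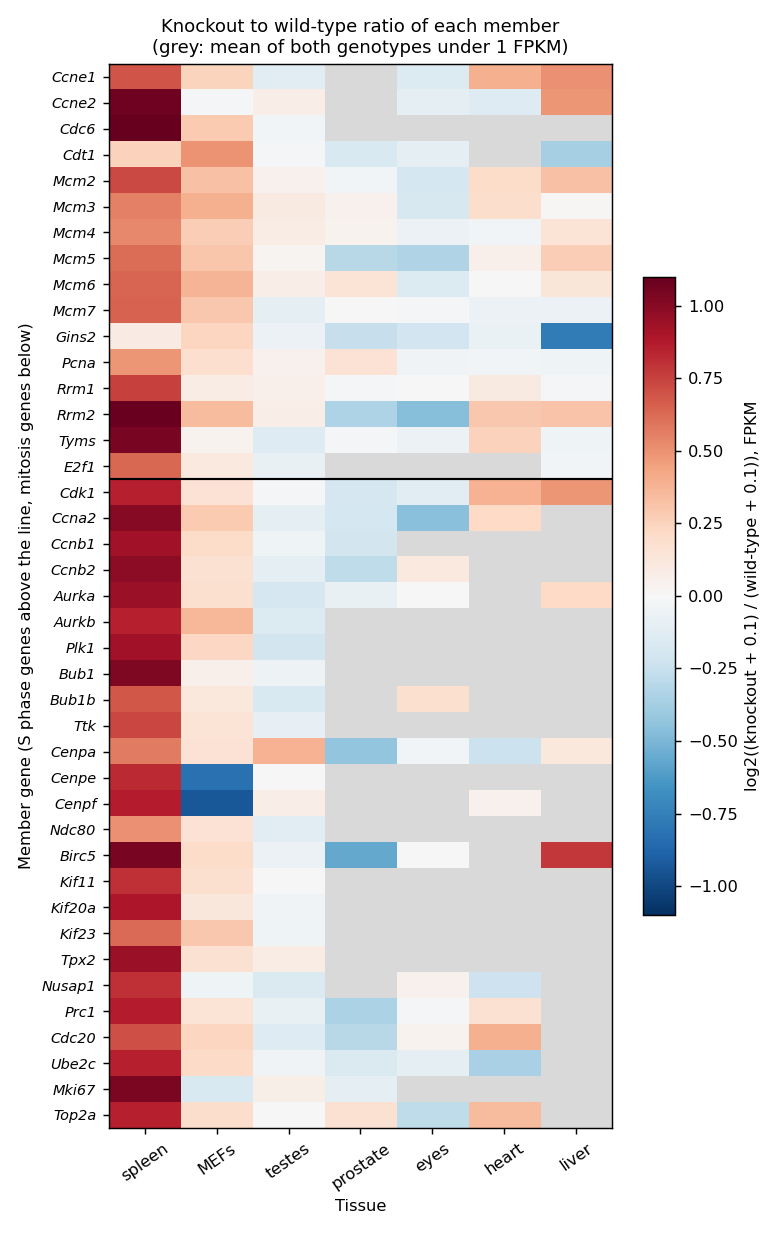
Each cell is the log2 ratio of knockout to wild-type of a member (rows) in a tissue (columns), red for higher and blue for lower in the knockout, grey where the mean of both genotypes was under 1 FPKM. The spleen column is red for all 41 members, the MEF column is red for 36 members and deepest blue for *Cenpe* and *Cenpf*, and the testes column has both colours, all short of 1.5 times.

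The knockout spleen had higher levels of every member. All 41 were above wild-type, where 45.5% of the 12618 genes of the tissue were, and 34 were higher by at least 1.5 times, against 4.91% of all genes. None was lower by that much, as 1.1% of all genes were. The median log2 ratio was 0.65 for the S phase members and 0.86 for the mitosis members, against -0.02 for all genes, and 40 of the 41 members lay above the upper quartile of all genes. At a limit of 2 times the count was 8, namely *Cdc6*, *Rrm2*, *Ccne2*, *Tyms*, *Birc5*, *Mki67*, *Bub1* and *Ccna2*. The 7 members short of 1.5 times were *Gins2*, *Cdt1*, *Pcna*, *Mcm4* and *Mcm3* of S phase and *Ndc80* and *Cenpa* of mitosis.

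The S phase members of the spleen had log2 ratios between 0.09 and 1.09, and 11 of the 16 were past 1.5 times. *Rrm2*, the regulated subunit of ribonucleotide reductase, was at 27.8 FPKM in wild-type and 58.97 FPKM in knockout, a log2 ratio of 1.08. *Tyms*, thymidylate synthase, was at 15.3 FPKM in wild-type and 31.7 FPKM in knockout (1.04 on the log2 scale), and *Rrm1*, the large subunit of the reductase, at 21.6 FPKM in wild-type and 36.6 FPKM in knockout (0.76). These genes supply the building blocks of DNA, and all 3 were past 1.5 times. *Ccne2* was at 5.93 FPKM in wild-type and 12.6 FPKM in knockout and *Ccne1* at 10.1 FPKM in wild-type and 16.5 FPKM in knockout, so both cyclin E genes were higher in the knockout, with log2 ratios of 1.07 and 0.70. *Cdc6*, the loader of the helicase, had the largest ratio of all members in this tissue (1.09), at 5.56 FPKM in wild-type and 11.97 FPKM in knockout. Its partner in licensing, *Cdt1*, was at 13.1 FPKM in wild-type and 15.6 FPKM in knockout, a log2 ratio of 0.25. The 6 subunits of the MCM helicase were much alike, from 0.53 for *Mcm4* at 16.99 FPKM in wild-type and 24.6 FPKM in knockout to 0.72 for *Mcm2* at 18.1 FPKM in wild-type and 29.9 FPKM in knockout. *Gins2*, part of the complex that activates the helicase, barely differed at 10.2 FPKM in wild-type and 10.8 FPKM in knockout (0.09). *Pcna*, the clamp that holds the polymerase on DNA, was at 66.3 FPKM in wild-type and 92.8 FPKM in knockout (0.48), and *E2f1*, the transcription factor in the list, at 3.996 FPKM in wild-type and 6.25 FPKM in knockout (0.63).

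The mitosis members of the spleen lay close together, between log2 ratios of 0.51 and 1.04, and 23 of the 25 were past 1.5 times. The cyclins and their kinase came first in the order of the cycle. *Ccna2*, cyclin A2, was at 15.5 FPKM in wild-type and 31.1 FPKM in knockout (1.01), and *Cdk1*, the kinase of mitosis, at 29.95 FPKM in wild-type and 54.2 FPKM in knockout (0.85). The B cyclins that activate it were at 13.7 FPKM in wild-type and 26.05 FPKM in knockout for *Ccnb1* and 13.5 FPKM in wild-type and 26.7 FPKM in knockout for *Ccnb2*, so all 4 genes of this group were past 1.5 times. Of the 6 mitotic kinases, the checkpoint kinase *Bub1* had the largest ratio (1.03), at 3.36 FPKM in wild-type and 6.96 FPKM in knockout. *Aurka* and *Plk1*, which build the spindle poles, were at 7.01 FPKM in wild-type and 13.6 FPKM in knockout and 6.21 FPKM in wild-type and 11.9 FPKM in knockout, with ratios of 0.95 and 0.93. *Aurkb*, the kinase of the chromosomal passenger complex, was at 8.801 FPKM in wild-type and 15.98 FPKM in knockout (0.85), and the checkpoint genes *Bub1b* and *Ttk* had the smallest ratios of the kinases, 0.68 and 0.74. All 6 kinases were past 1.5 times in the same direction.

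At the kinetochore the ratios spread further. *Birc5* (survivin, of the passenger complex) was at 23.2 FPKM in wild-type and 47.99 FPKM in knockout (1.04), the largest ratio of the mitosis members in spleen. *Cenpf* and *Cenpe*, large proteins of the outer kinetochore, had ratios of 0.86 and 0.82. *Cenpa* and *Ndc80*, the microtubule anchor, were the mitosis members short of 1.5 times, at 22.4 FPKM in wild-type and 33.2 FPKM in knockout and 5.88 FPKM in wild-type and 8.399 FPKM in knockout. The spindle group, made up of the motors *Kif11*, *Kif20a* and *Kif23* and the microtubule proteins *Tpx2*, *Nusap1* and *Prc1*, ran from 0.62 for *Kif23* to 0.95 for *Tpx2*. *Ube2c* and *Cdc20*, through which the anaphase-promoting complex acts, were at 26.1 FPKM in wild-type and 47.2 FPKM in knockout and 10.1 FPKM in wild-type and 16.5 FPKM in knockout. *Mki67*, the gene of the Ki-67 antigen that is stained to count dividing cells, was at 28.6 FPKM in wild-type and 58.6 FPKM in knockout (1.03), and *Top2a*, which untangles DNA, at 32.5 FPKM in wild-type and 58.9 FPKM in knockout (0.86). Without the pseudocount, these levels were 2.05 and 1.82 times those of wild-type. The summed mitosis to S phase ratio was 0.988 in wild-type and 1.14 in knockout spleen. The genes whose promoters are printed above had log2 ratios of 0.64 and 0.76 for the S phase pair *Mcm6* and *Rrm1*, and of 0.71, 0.80, 0.85 and 0.86 for *Cdc20*, *Kif11*, *Cdk1* and *Top2a*.

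**Figure D2:**
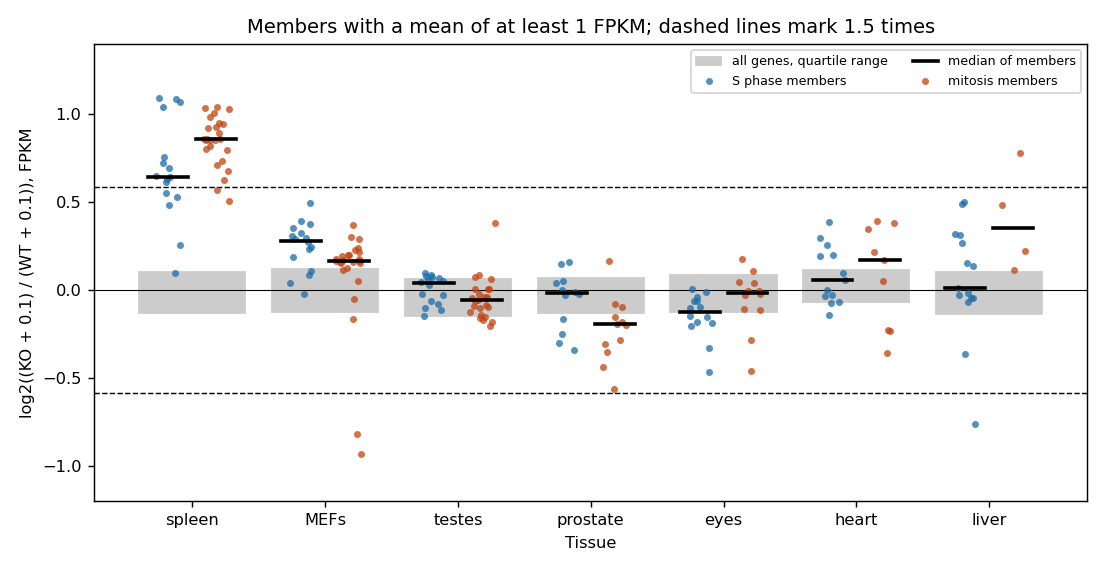
Points are the log2 ratios of S phase (blue) and mitosis (orange) members with a mean of at least 1 FPKM in each tissue, black bars their medians, grey boxes the quartile range of all genes, and dashed lines mark 1.5 times. In spleen both medians lie above the upper dashed line, at 0.65 and 0.86, and in the other tissues they lie between the lines.

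Genes of the same processes outside the members behaved alike in spleen, in lists that were chosen with earlier results of these data known. Of 36 further replication genes, 17 were higher by at least 1.5 times and none lower (median 0.57), and *Orc1* of the origin recognition complex had the largest log2 ratio, 1.06, at 1.35 FPKM in wild-type and 2.93 in knockout. Of 60 further mitotic genes, 46 were higher and none lower (median 0.77), led by *Sgol1* (shugoshin, which guards centromere cohesion) at 2.30 and 5.71 FPKM. Among 18 genes of the E2F, RB and DREAM families, 6 were higher, with *E2f8*, *Mybl2* (B-MYB), *E2f7*, *Foxm1* and *Tfdp1* having the largest log2 ratios, from 1.02 to 0.69. Of these, *E2f7* passed the filter only through its knockout level, at 0.756 FPKM in wild-type and 1.31 FPKM in knockout. The same held for *Exo1* among the replication genes counted as higher, at 0.881 and 1.64 FPKM. Neither the 7 G1 cyclins and kinases (median 0.11) nor the 6 measured inhibitors of cyclin-dependent kinases (median 0.02, or -0.01 with equal totals) had a gene past 1.5 times. Among 13 measured p53 target genes, 1 was higher and 1 lower by 1.5 times. The first was *Gtse1*, which is itself a gene of G2 and mitosis, at 2.16 and 4.09 FPKM. The second was *Plk2* at 3.73 and 2.37 FPKM.

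Markers of blood-forming cells moved with the members in spleen. All 13 erythroid markers found were higher by at least 1.5 times (median 1.18), and their summed level was 576 FPKM in wild-type and 1292 FPKM in knockout. The erythroid transcription factor gene *Klf1* was at 13.8 and 34.8 FPKM. All 6 megakaryocyte and platelet markers were higher (median 0.89), with sums of 179 and 355 FPKM, and 8 of 10 neutrophil and monocyte markers were higher (median 1.22), with sums of 751 and 1543 FPKM. Among the latter, genes of the granules made by immature neutrophils had the largest ratios, such as *Mpo* at 4.86 and 17.1 FPKM and *Elane* at 6.67 and 21.2. Lymphocyte markers were otherwise placed. All 7 B cell markers were below wild-type without reaching 1.5 times (median -0.28, sums of 1757 and 1413 FPKM), and the 7 T cell markers had a median of -0.04 with sums of 335 and 321 FPKM. Of 9 germinal center and plasma cell markers all were above wild-type (median 0.38, sums of 1220 and 1539 FPKM), and 8 were above it with equal totals. None of these markers was at 0 in the spleen. Genes foreign to the spleen also differed: *Spink3*, a gene of the pancreatic acinar cell that was listed here as a prostate marker, was at 0.0653 FPKM in wild-type and 28.5 FPKM in knockout, and the albumin gene *Alb* at 4.85 and 0.0366 FPKM. The part of these cell types and genes in the levels of the members was not tested.

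**Figure D3:**
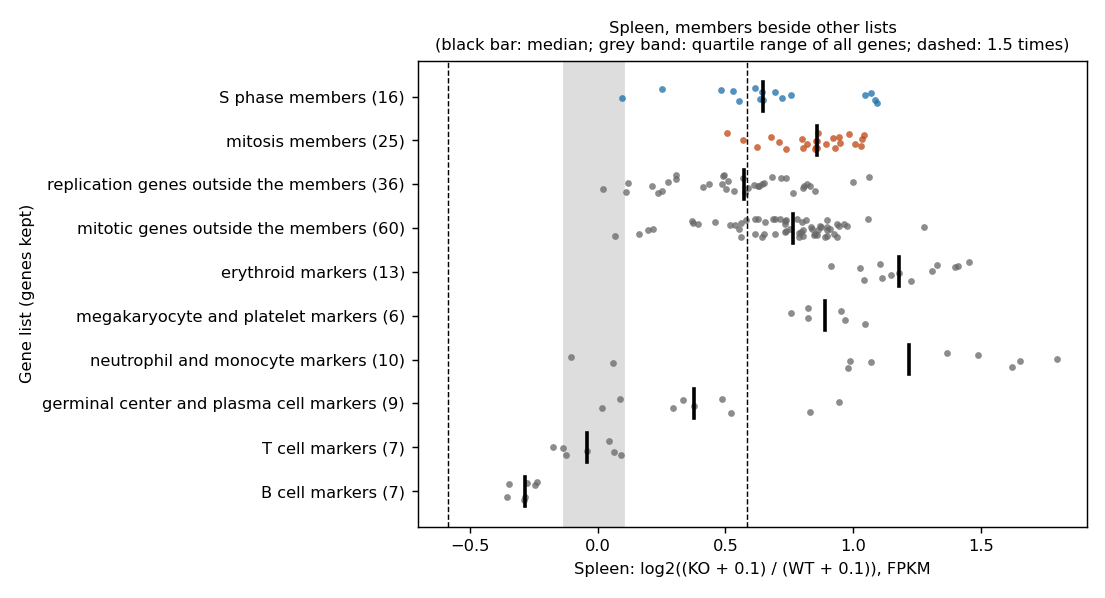
Points are the log2 ratios of single genes in spleen, 1 line per gene list with the number of genes in brackets, the black bar at the list's median and the grey band over the quartile range of all genes; dashed lines mark 1.5 times. Members, other replication and mitotic genes, and markers of red cells, platelets and neutrophils lie mostly to the right of the band, and B cell markers lie to its left.

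The MEFs showed a smaller difference in the same direction for most members. Of the 41 members, 36 were above wild-type, where 49.8% of the 11587 genes were, but none was higher by 1.5 times, against 0.975% of all genes. The 2 that were lower by that much were *Cenpe* and *Cenpf*, while 2.2% of all genes were. So few members cannot be read against that share, and neither was counted at a limit of 2 times or with a mean of at least 5 FPKM. The median log2 ratio was 0.28 for S phase and 0.17 for mitosis, against 0.00 for all genes, and 31 of the 41 members lay above the upper quartile of all genes, which was at 0.12.

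Licensing and helicase genes led the S phase members in MEFs. *Cdt1* had the largest ratio of all members, 0.49, at 4.59 FPKM in wild-type and 6.503 FPKM in knockout. The MCM genes followed, from 0.27 for *Mcm4* to 0.39 for *Mcm3* at 14.4 FPKM in wild-type and 18.9 FPKM in knockout, and *Cdc6* and *Gins2* had ratios of 0.29 and 0.24. All 9 genes of this group thus lay between 0.24 and 0.49. Nucleotide synthesis genes were uneven, with *Rrm2* at 40.4 FPKM in wild-type and 51.6 FPKM in knockout (0.35) and *Tyms* at 24.1 FPKM in wild-type and 24.9 FPKM in knockout (0.04). *Ccne1* had a ratio of 0.24 and *Ccne2* of -0.03, the lowest of the S phase members. This differs from the spleen, where *Ccne2* had the larger ratio of the pair. That contrast was not tested, and *Ccne2* shares exon sequence with *Ints8*, which had the higher level in spleen and in MEFs.

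The mitosis members of MEFs with a positive ratio ran from 0.05 for *Bub1* to 0.37 for *Aurkb*, at 7.82 FPKM in wild-type and 10.1 FPKM in knockout. *Cdk1* was at 57.7 FPKM in wild-type and 64.6 FPKM in knockout, the highest mitosis member in this culture, and *Ccnb1* at 23.5 FPKM in wild-type and 27.02 FPKM in knockout. Both were above wild-type by a log2 ratio of 0.16 and 0.20. *Cenpe*, a kinetochore motor, was at 5.499 FPKM in wild-type and 3.07 FPKM in knockout (-0.82), and *Cenpf* at 2.37 FPKM in wild-type and 1.19 FPKM in knockout (-0.93). The other kinetochore members *Cenpa*, *Ndc80* and *Birc5* had positive ratios of 0.16, 0.16 and 0.20. *Mki67* was at 13.7 FPKM in wild-type and 12.2 FPKM in knockout (-0.17) and *Nusap1* at 4.69 FPKM in wild-type and 4.53 FPKM in knockout (-0.05).

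*Cenpf*, *Mki67* and *Cenpe* have the longest transcripts of the members, with a longest annotated form of 11130, 10061 and 7910 bases, and they had the lowest ratios of the 41 in MEFs. Over all genes of the MEFs, the median log2 ratio was 0.02 for the 650 genes of at least 8 kb and -0.05 for the 2474 genes under 2 kb. Of these, 1.69% and 2.99% were lower by 1.5 times. In the class of 6000 to 8000 bases, which holds *Cenpe*, the median was 0.03 and 1.75% were lower by that much. The part of transcript length in these ratios was not tested. Of the 13 replication and mitotic genes outside the members with a transcript of at least 5 kb, a limit set after the values were seen, 3 were below wild-type and none by 1.5 times. These 3 were mitotic genes. *Kif20b* came near the limit, at 3.18 FPKM in wild-type and 2.16 FPKM in knockout (-0.54), and *Casc5* and *Kif18a* had ratios of -0.20 and -0.08. In spleen *Cenpf*, *Cenpe* and *Mki67* had ratios of 0.86, 0.82 and 1.03, within the range of the other mitosis members, and in testes 0.07, 0.00 and 0.06.

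**Figure D4:**
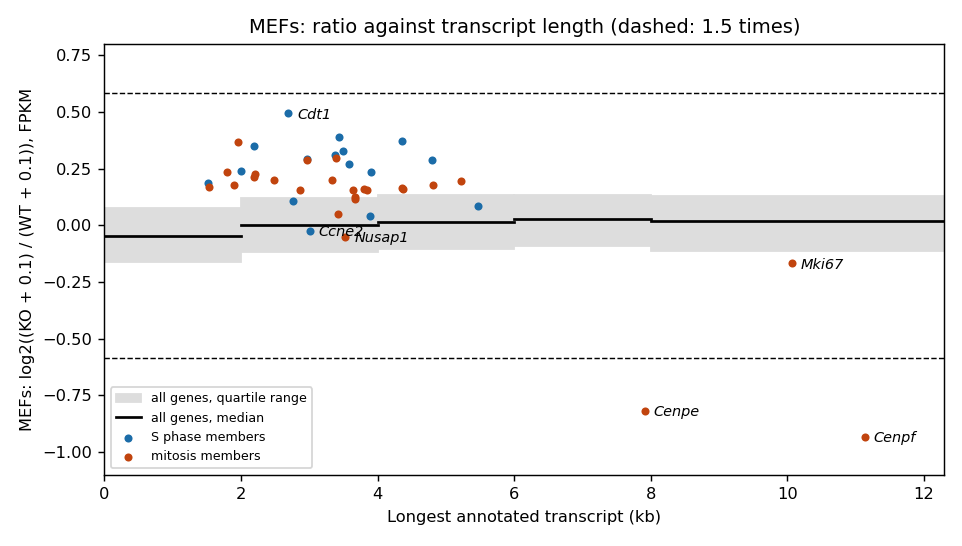
Points are the log2 ratios of the members in MEFs against the length of their longest annotated transcript in kb; black steps and grey boxes are the median and quartile range of all genes in 5 length classes. *Cenpe* and *Cenpf* lie below the lower dashed line (1.5 times), at -0.82 and -0.93, while the median of all genes of similar length is near 0.

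Outside the members, the MEFs had none of 36 replication genes and none of 60 mitotic genes past 1.5 times in either direction, with medians of 0.25 and 0.19 and with 33 and 48 genes above wild-type. *Mybl2*, the B-MYB gene, was the 1 gene of 17 measured in the E2F, RB and DREAM families past 1.5 times, at 4.04 and 6.56 FPKM. The inhibitors of cyclin-dependent kinases were mostly below wild-type. Of these 7 genes 1 was above wild-type, with a median of -0.22 (2 genes and a median of -0.15 with equal totals). *Cdkn1c* (p57) was lower by 1.5 times, at 14.5 and 9.31 FPKM. The G1 cyclins and kinases had a median of -0.04 (0.03 with equal totals) with no gene past 1.5 times. Among 15 p53 target genes, *Gdf15* was higher at 2.99 and 6.199 FPKM and *Perp* lower at 15.6 and 9.62 FPKM. The 9 fibroblast markers had sums of 6366 and 5973 FPKM, of which *Vim*, *Col1a1* and *Col1a2* made up most, and a median of -0.21. Among them *Lum* was lower by 1.5 times, at 2.57 and 1.66 FPKM. The part of culture composition in these values was not tested.

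Testes had the highest median level of the mitosis members and no member past 1.5 times. *Ccnb2* was the highest member of any tissue, at 108 FPKM in wild-type and 100.3 FPKM in knockout, followed there by *Aurka* at 99.4 FPKM in wild-type and 87.7 FPKM in knockout, *Mcm7* at 89.4 FPKM in wild-type and 83.2 FPKM in knockout and *Cdc20* at 78.03 FPKM in wild-type and 70.6 FPKM in knockout. Of all 15143 genes, 1.17% were higher and 0.753% lower by that much. Of the 41 members, 16 were above wild-type, where 36.4% of all genes were, but 29 were above after scaling both genotypes to the same total and 24 after centring on the median of all genes. The median was 0.04 for S phase and -0.06 for mitosis, against -0.06 for all genes. With equal totals it was 0.14 for S phase and 0.04 for mitosis, against 0.04 for all genes. Equal totals thus raised all genes and not only the members, and the share of all genes above wild-type with equal totals was not computed. Without this scaling, 8 members lay above the upper and 5 below the lower quartile of all genes.

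The S phase members of testes ran from -0.15 for *Tyms* to 0.10 for *Mcm3*, and 9 of 16 were above wild-type (13 with equal totals). Of the mitosis members 7 of 25 were above wild-type (16 with equal totals). The 6 mitotic kinases were below it, though *Bub1* and *Ttk* were above it with equal totals, and ran from -0.20 for *Plk1* at 47.5 FPKM in wild-type and 41.2 FPKM in knockout to -0.06 for *Bub1*. The member with the largest ratio in testes was *Cenpa*, at 2.39 FPKM in wild-type and 3.15 FPKM in knockout (0.38). It was also the lowest mitosis member of this tissue in wild-type. The cyclin and kinase group lay between -0.10 and -0.02, with *Cdk1* at 42.1 FPKM in wild-type and 41.5 FPKM in knockout and *Ccnb1* at 61.00 FPKM in wild-type and 59.05 FPKM in knockout. With equal totals *Cdk1* and *Ccnb1* were above wild-type, and *Ccna2* and *Ccnb2* were nearly level with it.

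Markers of testis cell types moved in both directions around these values. The 9 spermatid markers were all below wild-type (7 of them also with equal totals) with a median of -0.21, and their summed level was 41224 FPKM in wild-type and 35361 FPKM in knockout. All 7 Sertoli cell markers and all 6 Leydig cell markers were above wild-type, with medians of 0.34 and 0.35 and sums of 572 and 721 and of 963 and 1383 FPKM. No marker of these lists reached 1.5 times. The spermatogonia markers, of which 7 of 8 were measured, had a median of 0.00 with sums of 81.3 and 81.4 FPKM. The 30 germ cell and meiotic cell cycle genes had a median of -0.05, with 12 above wild-type (20 with equal totals) and none past 1.5 times. None of these genes was at 0 in testes, and the part of these cell types in the levels of the members was not tested. Of the other lists, 13 of 36 replication genes and 17 of 58 mitotic genes were above wild-type (24 and 37 with equal totals) and none was past 1.5 times. *Ccnd2*, cyclin D2, was higher at 0.964 and 3.27 FPKM, and passed the filter only through its knockout level. The E2F family members *E2f6* and *E2f3* were higher at 2.43 and 4.08 and at 2.00 and 3.27 FPKM.

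**Figure D5:**
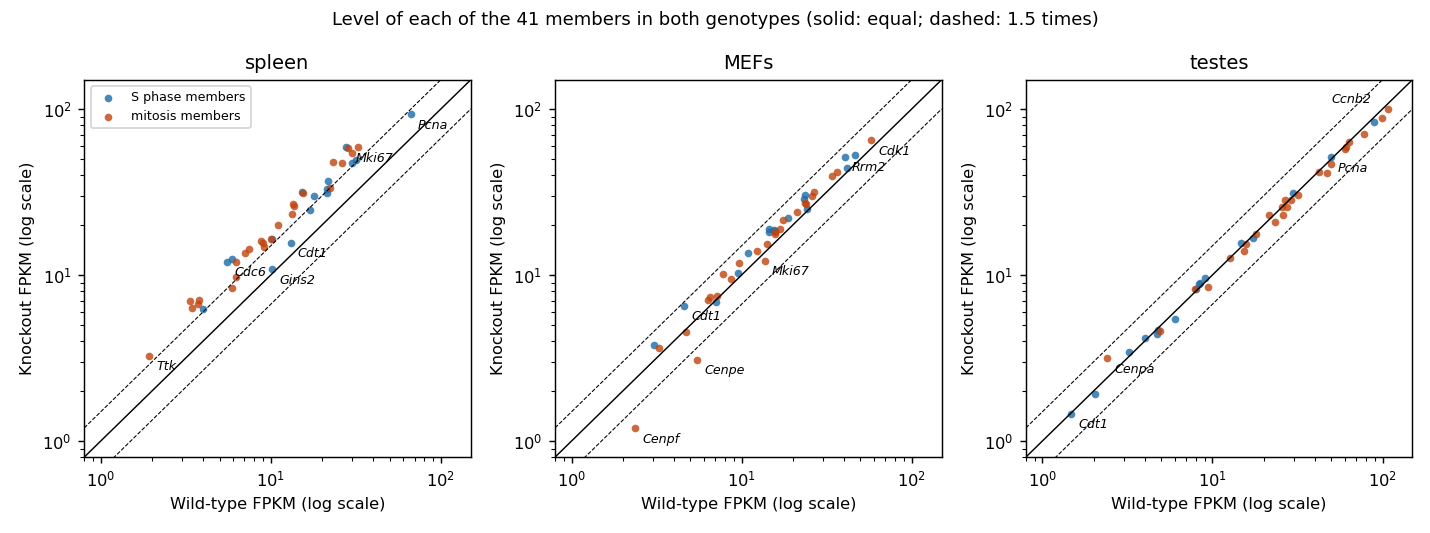
Each point is a member, with its wild-type level on the horizontal and its knockout level on the vertical axis, both in FPKM on log scales; the solid line marks equal levels and the dashed lines 1.5 times. In spleen 34 of the 41 points lie above the upper dashed line, in MEFs 36 lie above the solid line and *Cenpe* and *Cenpf* lie below the lower dashed line, and in testes all 41 lie between the dashed lines.

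In the tissues with low levels, between 19 and 26 members reached a mean of 1 FPKM, and 2 were past 1.5 times, both in liver. *Birc5* was higher there at 0.711 FPKM in wild-type and 1.29 FPKM in knockout (0.78), and *Gins2* was lower at 5.98 FPKM in wild-type and 3.48 FPKM in knockout (-0.77). With a mean of 1.001 FPKM, *Birc5* passed the filter only through its knockout level. *Gins2* shares exon sequence with *Gse1*, which was at 7.12 FPKM in wild-type and 4.44 FPKM in knockout liver. Reads from the shared stretch cannot be told apart, and the part of *Gse1* in this ratio was not tested. The share of all 11711 genes of the liver that were higher or lower by that much was 2.55% and 2.25%, and 1 of 19 members each way is too few to be read against it. Of those 19 members 12 were above wild-type, beside 45.5% of all genes, and 17 with equal totals, which moved the median of all genes in liver by 0.16. The 2 cyclin E genes were at 2.02 FPKM in wild-type and 2.900 FPKM in knockout for *Ccne1* and 1.65 FPKM in wild-type and 2.36 FPKM in knockout for *Ccne2*, and *Cdk1* at 2.31 FPKM in wild-type and 3.27 FPKM in knockout. All 4 measured mitosis members, *Birc5* among them, were above wild-type in liver, with a median of 0.35, and the other 21 were under 1 FPKM.

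In prostate, 6 of the 24 measured members were above wild-type (9 with equal totals), beside 39.1% of all 12166 genes, and none was past 1.5 times, where 2.4% of all genes were higher and 0.682% lower. The mitosis members had a median of -0.20, against -0.04 for all genes, and *Birc5* had the lowest ratio, at 2.400 FPKM in wild-type and 1.59 FPKM in knockout (-0.56). Only the pseudocount kept *Birc5* short of the limit, since without it the levels were 1.51 times apart. *Top2a* went the other way, at 8.400 FPKM in wild-type and 9.45 FPKM in knockout (0.17). The prostate has the fewest samples, with 2 in the knockout.

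Eyes had 5 of 26 measured members above wild-type (4 with equal totals), beside 43.5% of all 14298 genes, and none past 1.5 times, where 2.64% of all genes were higher and 0.867% lower. *Rrm2* at 1.28 FPKM in wild-type and 0.9001 FPKM in knockout (-0.46) and *Ccna2* at 6.61 FPKM in wild-type and 4.78 FPKM in knockout (-0.46) had the lowest ratios. Heart had 14 of 22 above wild-type (11 with equal totals), beside 58.6% of all 12695 genes, and none past 1.5 times, where 0.874% were higher and 1.44% lower. There *Cdc20* had the largest ratio, at 1.15 FPKM in wild-type and 1.55 FPKM in knockout (0.39), and *Ube2c* the lowest, at 6.54 FPKM in wild-type and 5.09 FPKM in knockout (-0.36). These genes act on the same complex and differed in direction, both below the limit. *Ube2c* shares exon sequence with *Tnnc2*, which was at 25.2 FPKM in wild-type and 0.214 FPKM in knockout heart. The level of *Ube2c* there, and so this contrast, is uncertain.

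Some members share exon sequence with a neighbour on the opposite strand, and the library kit named in the labels does not keep the strand, so reads from the shared stretch cannot be told apart. This holds for 9 of the 41, by the GENCODE vM21 annotation and the genes of the table. *Gins2* shares 2758 bases with *Gse1*, which was at 11.4 and 10.7 FPKM in spleen and at 7.12 and 4.44 FPKM in liver. *Kif20a* shares 1271 bases with *Cdc23*. *Ube2c* shares 592 bases with the skeletal muscle gene *Tnnc2*, which was at 25.2 and 0.214 FPKM in wild-type and knockout heart. *Ccna2* shares 510 bases with *Exosc9*, which was at 11.2 and 10.5 FPKM in eyes. *Ccne2* shares 609 bases with *Ints8*, which was at 13.5 and 16.6 FPKM in spleen, 19.9 and 21.6 in MEFs and 11.9 and 14.3 in liver. The levels of these members in tissues where the neighbour is the higher of the pair are therefore uncertain. Without the overlapping members, 26 of the remaining 32 members were higher by 1.5 times in spleen, and *Cenpe* and *Cenpf* were again the 2 lower ones in MEFs.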

How the data were processed

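RNA of 7 tissues was compared between genotypes in 42 samples, grouped by their titles. Per the labels, the submitters' processing used CASAVA 1.8.2, TopHat2 and Cuffdiff with the mm10 build. The authors' deposited table gives 1 FPKM value per genotype and tissue, scaled to transcript length and library size, with replicates combined; its header does not name the unit. It also holds the authors' fold changes, test statistics and p-values, which were not used, and so no test was made. The table holds 1 further tissue that is not analysed here. No counts or values per sample are given, so the depth per sample, and the precision it sets, are unknown.

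For each gene, log2((KO + 0.1)/(WT + 0.1)) was computed, and genes with a mean of both genotypes of at least 1 FPKM were kept; the limit for higher or lower was 1.5 times. The shares over all kept genes of a tissue stand beside the counts of members. They are for the values as deposited and not for equal totals, under which the median of all genes also moved. All 41 members are described. Of the other lists, at most 5 genes per list and tissue were named in MEFs, spleen and testes, those with the largest ratios past 1.5 times, and *Tug1* checked the labels; marker genes given for a tissue or a neighbour were named after their values were seen. A few marker genes of these lists are not reported here by name. The members and lists were chosen with earlier results of these data known. Transcript lengths and exon overlaps came from GENCODE vM21 on GRCm38, to which 25827 of 26653 gene identifiers were matched. Steps were tested on simulated data. All steps ran in Python 3.11.15 (numpy 2.4.6, pandas 2.3.3, matplotlib 3.10.9). The alternatives were other pseudocounts, filters, limits and scalings and only genes whose status in the table is OK. Leaving out members that overlap another gene was added after the data were seen.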

Additional observations from a re-analysis of the deposited data

How the results depend on the processing

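Under 238 combinations of 28 counts or medians with an alternative, 218 stayed within 1.5 times of the count or within 0.1 of the median. In spleen, 8 members were higher at a limit of 2 times; the other alternatives left the count within 1.5 times of 34. In MEFs no member was lower at a limit of 2 times (0) or with a mean of at least 5 FPKM (0). In liver, the count of higher members was 0 at 2 times, 0 at 5 FPKM, 0 with a pseudocount of 1, 7 without a filter and 3 after rescaling to equal totals, and the count of lower members was 0 at 2 times, 0 at 5 FPKM and 0 without overlapping members, which leaves out *Gins2*. In heart 1 member was lower without a filter, and in prostate 1 with a pseudocount of 0.01. With a mean of at least 5 FPKM, between 1 and 4 members were left in a group, and the medians became -0.025 for S phase in eyes and, for mitosis, -0.14 (eyes), -0.23 (heart), 0.11 (liver) and 0.17 (prostate). The mitosis median of liver was 0.25 with a pseudocount of 1, and the S phase median of liver 0.16 after rescaling. Medians near 0 changed sign with equal totals for mitosis in testes (0.042) and for S phase in prostate (0.050) and heart (-0.015), and with centring for S phase in prostate (0.020) and mitosis in testes (0.0019) and eyes (0.0095). The causes of the moves not named here were not tested. No paired analysis was possible because the table holds 1 value per genotype and tissue, and for the same reason no replicate could be left out. Depth is unknown, so no limit of detection can be given.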
